A study of Mus musculus with 38 samples.

Results

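The transcripts of 8 small leucine-rich proteoglycans (SLRPs) were followed in mouse left ventricle: lumican (Lum), decorin (Dcn), biglycan (Bgn), osteoglycin (Ogn), prolargin (Prelp), asporin (Aspn), fibromodulin (Fmod) and podocan (Podn). They were chosen by name as members of the family, with earlier results of these data known. They make up 8 of the 29564 genes listed, and all 8 passed the filter on low counts that kept 13765 genes. RNA was measured in 38 C57BL6 mice of wild-type genotype (substrain C57BL/6J in the published methods), with 1 library per mouse. The 8 non_failing controls received vehicle. The other mice had heart failure with preserved ejection fraction (HFpEF) from a high-fat diet combined with L-NAME, a blocker of nitric oxide synthase, and were divided into 8 given vehicle (HFpEF+Veh), 11 given TYA-018, an inhibitor of the deacetylase HDAC6 (HFpEF+TYA-018), and 11 given empagliflozin, an inhibitor of the renal glucose transporter SGLT2 (HFpEF+SGLT2i). The labels give no age. They say female, where the published methods say male, and they also differ from the methods on the length of treatment and the read layout. The tissue was homogenised whole, so more or fewer cells of a type and more or less RNA per cell cannot be told apart.

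SLRPs are secreted proteins whose core is a curved stack of leucine-rich repeats. They bind collagen, and mice lacking decorin, lumican or fibromodulin have collagen fibrils of irregular diameter. Several carry chains of chondroitin or dermatan sulfate (decorin, biglycan) or keratan sulfate (lumican, fibromodulin), and decorin and biglycan also bind TGF-β. In the heart they are made largely by fibroblasts and are laid down with collagen in the interstitium. Class I holds Dcn, Bgn and Aspn, class II holds Lum, Fmod and Prelp, class III holds Ogn and class V holds Podn.

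In HFpEF+Veh hearts Lum, Bgn and Prelp rose above the non_failing level, by 1.81-fold, 1.54-fold and 1.35-fold. None of the 8 members passed the adjusted threshold under either drug compared with vehicle, and 7 of 8 estimates were negative under each drug, where 48.2% (TYA-018) and 51.6% (empagliflozin) of all genes had positive estimates. Both drugs were compared with the same vehicle hearts, so the 2 sets of estimates are not independent. Compared with non_failing hearts, Bgn was higher in both drug groups, Lum was higher under TYA-018 and Fmod was lower under empagliflozin. Under the other drug the estimates had the same sign without a call. They were 0.47 for Lum under empagliflozin and -1.32 for Fmod under TYA-018 (adjusted p 0.065 and 0.137 by edgeR). Between the drugs neither gene was called (adjusted p 0.903 for Lum and 0.601 for Fmod by edgeR). The Fmod call was lost without V2502. Of 38 fits with a single library omitted, 5 lost the call for Lum and 2 that for Bgn under TYA-018, and 3 that for Prelp in HFpEF+Veh. Of the vehicle hearts, V2530 held the highest level of 6 of the 8 members, and the values are therefore also given without it and without V2523, a library rich in liver transcripts.

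The members lie in few places of the genome (GRCm38, GENCODE M21 gene bounds). On chromosome 10 Dcn (97479609 to 97518143, plus strand) precedes Lum (97565128 to 97572703, plus strand), with the keratocan gene Kera and the epiphycan gene Epyc beyond it. On chromosome 1 Prelp (133910304 to 133921414, minus strand) lies near Fmod (134037254 to 134048277, plus strand) and overlaps the antisense gene Gm15851. On chromosome 13 Aspn (49544443 to 49567565, plus strand) and Ogn (49608046 to 49624501, plus strand) flank the osteomodulin gene Omd, and both lie within Cenpp on the opposite strand. Podn (chromosome 4, 108014791 to 108096445, minus strand) overlaps Scp2 on the same strand, so reads from shared sequence could be divided between them. Bgn stands alone on chromosome X (73483602 to 73495933, plus strand).

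RefSeq promoters (GRCm38.p6, from 250 bases before to 50 bases after the gene start) were at hand for 6 members, with 7 promoters because Podn has 2. The promoters of Bgn and Prelp are shown because both genes rose in HFpEF+Veh, and that of Ogn because it did not pass the test there. Capitals mark matches on either strand to the core bound by SMAD proteins (CAGAC), the AP-1 site (TGANTCA), the TATA box, which is searched as TATAAA, the GC box bound by SP1 (GGGCGG) or the MCAT box bound by TEAD factors, which is searched as CATTCC.
Bgn, chrX:73483351-73483650, plus strand: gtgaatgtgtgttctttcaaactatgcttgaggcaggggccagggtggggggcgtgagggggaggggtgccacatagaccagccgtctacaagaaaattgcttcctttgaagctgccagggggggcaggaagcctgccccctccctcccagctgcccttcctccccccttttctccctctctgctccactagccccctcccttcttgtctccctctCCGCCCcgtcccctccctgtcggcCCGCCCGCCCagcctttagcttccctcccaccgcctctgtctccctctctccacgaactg
Prelp, chr1:133921352-133921651, minus strand: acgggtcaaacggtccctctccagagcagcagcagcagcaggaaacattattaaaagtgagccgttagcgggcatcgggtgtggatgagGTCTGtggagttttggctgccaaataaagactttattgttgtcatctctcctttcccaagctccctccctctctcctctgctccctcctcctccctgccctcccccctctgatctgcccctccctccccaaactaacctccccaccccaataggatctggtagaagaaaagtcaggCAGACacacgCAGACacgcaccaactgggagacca
Ogn, chr13:49607765-49608064, plus strand: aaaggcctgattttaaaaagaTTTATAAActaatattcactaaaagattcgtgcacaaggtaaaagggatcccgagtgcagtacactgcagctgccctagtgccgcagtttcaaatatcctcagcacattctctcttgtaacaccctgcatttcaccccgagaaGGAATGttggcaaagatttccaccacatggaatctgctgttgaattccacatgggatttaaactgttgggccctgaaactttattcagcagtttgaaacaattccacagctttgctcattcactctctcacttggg
The Bgn promoter held 3 GC boxes, a pair of them overlapping, in 63.7% G and C. The Prelp promoter held 3 SMAD cores, and that of Ogn a TATA box match on each strand, overlapping, and an MCAT box. Of the others, Fmod held 2 SMAD cores, Aspn 2 TATA matches, 1 Podn promoter 2 GC boxes and the other a SMAD core. No AP-1 match was found in any of the 7 windows. Of all 32851 promoters of the table, 49.6% hold a SMAD core, 35.7% a GC box, 13.6% a TATA match, 14.7% an MCAT box and 7.81% an AP-1 match. An E-box (CANNTG), left in lower case, was found in all 7 windows and in 72.3% of all promoters. These matches describe the letters only.

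Decorin carried most of the family's transcripts. Levels are given in TPM (transcripts per M transcripts, where M stands for 1000000), which is corrected for transcript length and so allows genes to be compared. Over the 38 hearts Dcn averaged 222 ± 60.1 TPM (SD, n = 38), or 58.7% of the sum of the 8 members, and Bgn averaged 81.5 ± 20.9 TPM (SD, n = 38), or 21.6%. Ogn followed with 28.8 TPM, Lum with 16.9, Aspn with 14.3, Prelp with 8.38 and Podn with 4.89. Fmod was the rarest at 0.538 TPM, and its values rest on 9 to 368 counts per library. For the other members the lowest count in any library was 259, so counting error was small beside the spread between mice. The 8 members together reached 327 TPM in non_failing hearts with an SD of 47.7 (n = 8). Vehicle-treated HFpEF hearts reached 473 TPM with an SD of 150 (n = 8). The sums under TYA-018 and empagliflozin were 361 ± 50.3 and 361 ± 31.9 TPM (SD, n = 11 each). Without V2523 and V2530 the vehicle sum was 426 ± 77.9 TPM (SD, n = 6).

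**Figure D1:**
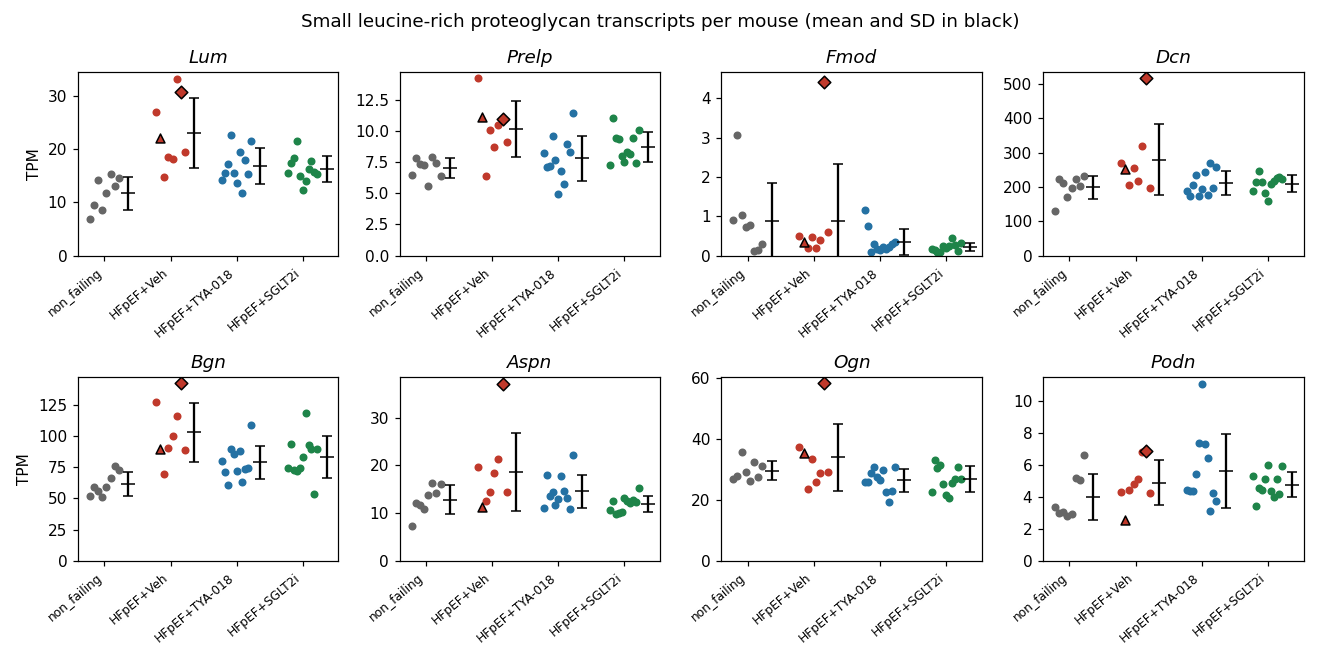
Each point is the level of a member in 1 mouse, in TPM (vertical axes from 0, with their own scale per gene), by group; black marks give the mean and SD, cut at 0 for Fmod. Triangles mark HFpEF+Veh V2523 and diamonds HFpEF+Veh V2530, which is the highest vehicle library for Dcn, Bgn, Aspn, Ogn, Fmod and Podn.

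Libraries held 21.5 to 59.3 M counts, with group means of 31.7 to 35.0 M. The tissue carried the marker genes of ventricular myocardium, with a summed level of 8 cardiomyocyte markers of 15339 to 29356 TPM and of 13 fibroblast markers of 317 to 753 TPM. All 7 adipocyte markers stayed under 1 TPM in each group's mean. Hepatocyte markers were summed at 1453 TPM in HFpEF+Veh V2523. They lay between 2.70 and 34.6 TPM in the other vehicle hearts, between 24.6 and 378 TPM in the non_failing hearts, and at 9.36 TPM or less in the hearts given a drug. Against non_failing 11 of 11 hepatocyte markers were called lower under TYA-018 and 10 of 11 under empagliflozin, beside 7.39% and 6.45% of all genes. The part of these liver transcripts in the differences of the members from non_failing was not tested.

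The comparison of HFpEF+Veh with non_failing hearts asks which SLRPs change in the model itself. With edgeR's quasi-likelihood test and Benjamini-Hochberg adjustment over all 13765 genes, 3 of 8 members were called at an adjusted p under 0.05, all higher, against 3.15% of all genes called in either direction and 1.77% called higher. A further 2 members, Dcn and Aspn, had an unadjusted p under 0.05, which 15.9% of all genes reached. The median log2 fold change of the 8 members was 0.39, and that of all genes was 0.01.

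Of class II, lumican showed the largest increase. Lum ranged from 6.93 to 15.3 TPM in the 8 non_failing hearts, with a median of 12.4, and from 14.7 to 33.2 TPM in the 8 HFpEF+Veh hearts, with a median of 20.8. The groups overlapped only through V2526, the lowest vehicle heart, and 7 of 8 vehicle hearts lay above every non_failing heart. The means were 11.7 ± 3.10 and 23.0 ± 6.62 TPM (SD, n = 8 each). The log2 fold change was 0.86 (SE 0.17, adjusted p 0.0019 by edgeR), and 0.79 without V2523 and V2530 (adjusted p 0.00857).

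Prolargin, which binds collagen and the heparan sulfate of basement membranes, rose less. Prelp ranged from 5.59 to 7.87 TPM in non_failing, with a median of 7.29, and from 6.395 to 14.3 TPM in HFpEF+Veh, with a median of 10.3. V2526 was again the vehicle heart that overlapped the controls, and the other 7 lay above them. The log2 fold change was 0.43 (SE 0.11, adjusted p 0.025 by edgeR). The call was lost when V2501, V2521 or V2530 was left out, with an adjusted p of up to 0.0666, and without V2523 and V2530 the log2 fold change was 0.40 (adjusted p 0.0795).

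Fibromodulin, which shares a collagen binding site with lumican, did not follow them. Fmod ranged from 0.128 to 3.08 TPM in non_failing, with a median of 0.760, and from 0.191 to 4.42 TPM in HFpEF+Veh, with a median of 0.434. The highest value of each group stood far from the rest, V2502 in non_failing (the next was 1.02 TPM) and V2530 in HFpEF+Veh (the next was 0.607 TPM). The log2 fold change was -0.07 with a 95% confidence interval from -1.25 to 1.10 (adjusted p 0.968 by edgeR). It moved to -1.27 without V2530 and turned to 0.49 without V2502, and its sign changed in 7 of the 38 fits with a single library omitted.

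Of class I, biglycan rose in the model. Bgn ranged from 50.9 to 75.7 TPM in non_failing, with a median of 59.3, and from 69.3 to 143 TPM in HFpEF+Veh, with a median of 95.2. The overlap came again from V2526 alone. The means were 61.5 ± 9.29 and 103 ± 23.9 TPM (SD, n = 8 each). The log2 fold change was 0.62 (SE 0.13, adjusted p 0.00296 by edgeR), 0.54 without V2530 (adjusted p 0.0108) and 0.56 without V2523 and V2530 (adjusted p 0.00871).

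Decorin, which binds collagen at the fibril surface and neutralises TGF-β, did not pass the adjusted threshold. Dcn ranged from 131 to 231 TPM in non_failing, with a median of 208, and from 198 to 515 TPM in HFpEF+Veh, with a median of 252. The estimate of 0.35 on the log2 scale (adjusted p 0.207 by edgeR, SE 0.15) fell to 0.16 without V2530 (adjusted p 0.607), where the next vehicle heart had 319 TPM. Asporin, which also binds collagen and TGF-β, gave an estimate of 0.42 (adjusted p 0.277 by edgeR, SE 0.20). It ranged from 7.23 to 16.2 TPM in non_failing and from 11.2 to 37.0 TPM in HFpEF+Veh, and the estimate for Aspn was 0.18 without V2530 (adjusted p 0.720). In the other 7 vehicle hearts Aspn reached at most 21.4 TPM.

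Osteoglycin and podocan did not pass the test. Ogn ranged from 26.3 to 35.7 TPM in non_failing and from 23.5 to 58.4 TPM in HFpEF+Veh, where V2530 was highest and the next heart had 37.5 TPM. The log2 fold change of Ogn was 0.09, with a 95% interval from -0.18 to 0.37 (adjusted p 0.791 by edgeR), and it turned to -0.081 without V2530. Podn ranged from 2.80 to 6.62 TPM in non_failing and from 2.58 to 6.88 TPM in HFpEF+Veh. Its estimate was 0.18 with an interval from -0.26 to 0.62 (adjusted p 0.735 by edgeR).

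**Figure D2:**
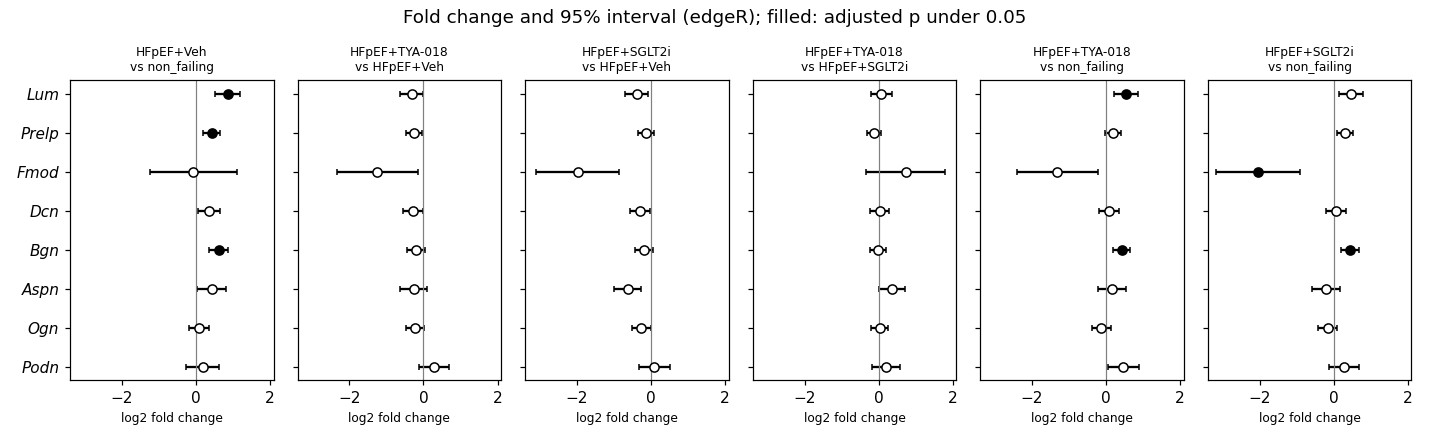
Log2 fold change of each member (points) with its 95% confidence interval (bars) by edgeR in 6 comparisons; filled points passed an adjusted p under 0.05. Lum, Prelp and Bgn are filled for HFpEF+Veh against non_failing, none is filled in the comparisons between HFpEF groups, and the intervals of Fmod are the widest.

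TYA-018 was compared with vehicle to ask whether HDAC6 inhibition moved the family. None of the 8 members was called by edgeR, against 1.93% of all genes in either direction and 1.1% called lower, and DESeq2 and limma called none either. Lum, Prelp and Fmod had an unadjusted p under 0.05, all lower, a level that 17.5% of all genes reached. The median log2 fold change of the 8 members was -0.26, and that of all genes was -0.009. With library size alone as the scaling, which moved the median of all genes to -0.14, Prelp was called at -0.39 (adjusted p 0.0351).

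Lum ranged from 11.7 to 22.7 TPM under TYA-018, with a median of 15.5, between the non_failing and the vehicle medians. Its log2 fold change against vehicle was -0.32 (95% interval -0.63 to -0.009, adjusted p 0.268 by edgeR), with 11 of 11 mice under the vehicle mean of 23.0 TPM. Without V2530 that mean was 21.9 TPM, under the highest heart, V2548. Prelp ranged from 4.92 to 11.4 TPM and gave -0.26 (interval -0.47 to -0.05, adjusted p 0.180 by edgeR). Fmod ranged from 0.101 to 1.17 TPM and gave -1.24 (interval -2.35 to -0.14, adjusted p 0.219 by edgeR), which shrank to -0.049 without V2530.

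Dcn ranged from 172 to 268 TPM under TYA-018, and its log2 fold change was -0.27 with all vehicle hearts and -0.083 without V2530. Bgn ranged from 61.0 to 108 TPM and gave -0.20 (interval -0.44 to 0.03, adjusted p 0.365 by edgeR), and -0.12 without V2530. The values for Aspn and Ogn were -0.26 and -0.23, and -0.014 and -0.056 without V2530. Without V2530 Lum gave -0.24 and Prelp -0.24 (adjusted p 0.494 and 0.309 by edgeR), so the estimates of Dcn, Aspn, Ogn, Fmod and Bgn shrank more than those of Lum and Prelp. Lum and Prelp shrank most without other vehicle hearts. Lum gave -0.22 without V2529 and Prelp -0.19 without V2521 (adjusted p 0.526 and 0.333 by edgeR).

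Podn was the member with a positive estimate, 0.29 (interval -0.12 to 0.70, adjusted p 0.475 by edgeR). It ranged from 3.09 to 11.1 TPM under TYA-018, with a median of 4.46 that was close to the vehicle median of 4.63. The highest heart, V2550, stood above the next at 7.41 TPM, and without it the log2 fold change was 0.11.

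Empagliflozin was compared with vehicle in the same way. None of the 8 members was called by edgeR, against 0.85% of all genes in either direction and 0.719% called lower, while DESeq2 and the fit without a filter each called Fmod, and the scaling by library size alone called Aspn. Limma called none. Dcn, Aspn, Lum, Fmod and Ogn had an unadjusted p under 0.05, all lower, a level that 10.05% of all genes reached. The median log2 fold change of the 8 members was -0.28, and that of all genes was 0.006.

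Aspn was lowest of the groups under empagliflozin, from 9.75 to 15.4 TPM with a median of 12.3, against a vehicle median of 16.5. Its log2 fold change was -0.63 (interval -0.99 to -0.26, adjusted p 0.104 by edgeR), and -0.38 without V2530 (adjusted p 0.481). Fmod ranged from 0.0989 to 0.459 TPM, with a median of 0.187. Its log2 fold change was -1.98 (SE 0.56, adjusted p 0.0919 by edgeR and 0.0319 by DESeq2), which moved to -0.78 without V2530 (adjusted p 0.799 by edgeR).

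Lum ranged from 12.4 to 21.5 TPM under empagliflozin and gave -0.39 against vehicle (interval -0.70 to -0.08, adjusted p 0.309 by edgeR), and -0.32 without V2523 and V2530. Dcn gave -0.30 and Ogn -0.26, which became -0.11 and -0.086 without V2530. Bgn ranged from 53.9 to 118 TPM and gave -0.18 (interval -0.42 to 0.05), Prelp gave -0.14 (interval -0.35 to 0.07) and Podn 0.09 (interval -0.32 to 0.50), with adjusted p of 0.619, 0.699 and 0.914 by edgeR. Bgn became -0.099 without V2530, Prelp -0.071 without V2521 and Podn -0.0065 without V2523.

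Between the drugs no member was called by edgeR, limma or DESeq2. Over all genes edgeR called 0% and DESeq2 called 187 genes. Aspn alone had an unadjusted p under 0.05, a level that 13.2% of all genes reached, and was higher under TYA-018 by 0.36 on the log2 scale (interval 0.02 to 0.70, adjusted p 0.346 by edgeR). The interval ran from -0.22 to 0.28 for Dcn, from -0.23 to 0.20 for Bgn, from -0.21 to 0.36 for Lum and from -0.32 to 0.08 for Prelp. For Ogn it ran from -0.20 to 0.26, for Podn from -0.18 to 0.57 and for Fmod from -0.33 to 1.80.

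Each drug group was then set against non_failing hearts. Under TYA-018, 2 of 8 members were called, both higher, against 7.39% of all genes called in either direction. Bgn had a median of 74.1 TPM, against 59.3 in non_failing, and a log2 difference of 0.42 (adjusted p 0.0221 by edgeR, SE 0.12). Lum gave 0.54 (adjusted p 0.0268, SE 0.16). The call for Bgn was lost without V2503 or V2504 and that for Lum without V2501, V2502, V2504, V2548 or V2570, with adjusted p of at most 0.0536 and 0.0632. With library size alone neither was called, and limma called Lum but not Bgn. Podn gave 0.47 (adjusted p 0.162), and 0.29 without V2550. Fmod gave -1.32 (adjusted p 0.137), was called lower without V2543 (-1.67, adjusted p 0.0475) and was at -0.75 without V2502. The estimates were 0.08 for Dcn, 0.16 for Aspn, 0.17 for Prelp and -0.14 for Ogn, none of them called.

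Under empagliflozin 2 of 8 members were called against non_failing hearts, where 6.45% of all genes were called in either direction. Bgn was higher, with a median of 83.1 TPM and an estimate of 0.44 (adjusted p 0.0181 by edgeR, SE 0.12), and it was called in all 38 fits that each left out 1 library. Limma on log2(TPM + 1) did not call it (adjusted p 0.0671). Fmod gave -2.05 (adjusted p 0.0189 by edgeR, SE 0.56), with medians of 0.187 TPM under empagliflozin and 0.760 TPM in non_failing. Without V2502, the non_failing heart with the highest Fmod, the log2 fold change was -1.49 (adjusted p 0.106), and limma did not call it either (adjusted p 0.152). Lum gave 0.47 (adjusted p 0.065 by edgeR) and was called by DESeq2 (adjusted p 0.0416), by limma (adjusted p 0.0371) and with a length offset (adjusted p 0.0479). Prelp gave 0.29 (adjusted p 0.0915 by edgeR) and was called in the fit of these 2 groups alone (adjusted p 0.0192). The estimates were 0.05 for Dcn, -0.20 for Aspn, -0.17 for Ogn and 0.27 for Podn, with adjusted p from 0.498 to 0.876.

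In the order of the group means, HFpEF+Veh was highest for Lum, Dcn, Bgn, Prelp, Aspn and Ogn, and HFpEF+TYA-018 for Podn, while non_failing was lowest for Lum, Dcn, Bgn, Prelp and Podn. The Fmod means of HFpEF+Veh and non_failing were 0.890 and 0.888 TPM, but the vehicle median was the lower of the 2 and the estimate was -1.27 without V2530. The estimate of Ogn against non_failing likewise turned negative without V2530. For Bgn the step between non_failing and the next group, HFpEF+TYA-018, passed the adjusted test, while none of the differences between the HFpEF groups did. For Lum the step from non_failing to the next group, HFpEF+SGLT2i, did not pass the test and that to HFpEF+TYA-018 did. The difference of Lum between the drugs was not called (0.07, adjusted p 0.903 by edgeR). For Dcn, Ogn, Aspn and Podn none of the 6 differences passed.

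The marker genes of other cell types were compared beside the family. Markers of activated fibroblasts (9 listed, 8 tested) were summed at 62.3 ± 14.3 TPM in non_failing (46.4 to 92.7, n = 8) and at 116 ± 39.2 TPM in HFpEF+Veh (73.5 to 179, n = 8). Over all genes 3.15% were called in HFpEF+Veh in either direction and 1.77% higher. Against non_failing 7.39% of all genes were called under TYA-018 and 6.45% under empagliflozin. Of the 8 activated fibroblast markers tested, 4 were called higher in HFpEF+Veh. Among them Postn, a matrix protein of activated fibroblasts, rose by 1.03 on the log2 scale (adjusted p 0.0112 by edgeR), and Cilp by 1.81 (adjusted p 0.00296). Without V2530 the calls for Postn (adjusted p 0.0531 by edgeR) and Comp were lost and those for Cilp and Ltbp2 were not. Without V2523 and V2530 Postn was called, at 0.81 (adjusted p 0.0457). Comp moved from 1.86 to 0.58 without these 2 libraries (adjusted p 0.493), and its call was also lost without V2501, V2502, V2504 or V2509. V2530 had the highest sum, 179 TPM, with V2521 next at 164 TPM, and was the highest vehicle library for 7 of the 8 genes. It was the highest vehicle library for 6 of the 8 members and for 12.3% of all genes, while V2523 was highest for 0 of 8 members and 21.02% of all genes. The activated fibroblast sums were 92.4 ± 23.0 TPM under TYA-018 and 82.2 ± 15.1 TPM under empagliflozin (SD, n = 11 each). All 8 tested estimates were negative against vehicle under each drug, with medians of -0.39 and -0.66, and none was called (unadjusted p under 0.05 for 4 and 6, beside 17.5% and 10.05% of all genes). Macrophage markers were summed at 115 ± 20.5 TPM in non_failing and 151 ± 31.9 TPM in HFpEF+Veh (SD, n = 8 each), with 7 of 7 estimates positive and none called. Of 13 general fibroblast markers Pdgfra alone was called in HFpEF+Veh, higher by 0.33 (adjusted p 0.0123 by edgeR). Their sum was 445 ± 52.5 TPM in non_failing (343 to 508, n = 8) and 566 ± 142 TPM in HFpEF+Veh (331 to 753, n = 8). Under TYA-018 and empagliflozin it was 440 ± 98.7 and 497 ± 63.8 TPM (SD, n = 11 each). Against vehicle 12 and 9 of the 13 estimates were negative, with medians of -0.15 and -0.08, and none was called. An unadjusted p under 0.05 was reached by 2 and 3 of them, all lower, beside 17.5% and 10.05% of all genes. Against non_failing Pdgfra was also called higher under empagliflozin, by 0.35 (adjusted p 0.00211). Tcf21 was called lower there, a call lost in 5 of 38 fits with a single library omitted, with library size alone and by limma. Under TYA-018 none of the 13 was called, and Acta2, an activated fibroblast marker, was called higher. Its call was lost in 9 of 38 such fits, with library size alone, with no filter, by limma and in the fit of 2 groups. Of 8 pericyte and smooth muscle markers Rgs5 was called lower there, with 4 estimates negative. Of 6 Schwann cell markers Gfra3 (-0.71) and Sox10 (-0.62) were called lower, with 3 estimates negative. V2526, the lowest vehicle heart for Lum, Bgn, Prelp and Ogn, also had the lowest fibroblast marker sum of the vehicle hearts. Markers of valve and tendon were summed at 23.8 TPM in V2530 and at 9.22 TPM or less in the other vehicle hearts, with Tnmd, Mkx, Hapln1 and Cilp2 under 1 TPM in the group mean. Comp, which is also in the activated fibroblast list, made up 13.8 TPM of the V2530 sum, and without Comp the sum was 10.1 TPM in V2530 and 8.02 TPM or less in the others. The cardiomyocyte marker sum was 26015 ± 3063 TPM in non_failing and 22158 ± 1306 TPM in HFpEF+Veh (SD, n = 8 each), where V2530 was lowest at 19917 TPM. Of 8 such markers Tnnt2, Myl2 and Tnni3 were called lower in HFpEF+Veh than in non_failing, by 0.43, 0.37 and 0.34 (adjusted p 0.00459, 0.0121 and 0.0129 by edgeR). There 7 of the 8 estimates were negative (median -0.26). These 3 genes were also called lower under empagliflozin than in non_failing, although 3 of the 8 estimates were positive there (median -0.13). Against vehicle none was called under either drug, and 6 of 8 estimates were positive under each, with medians of 0.18 (TYA-018) and 0.04 (empagliflozin). Of 8 endothelial markers all 8 estimates were negative under TYA-018 against vehicle (median -0.13) and 4 under empagliflozin (median -0.004), and none was called. An unadjusted p under 0.05 was reached under TYA-018 by 4 cardiomyocyte markers, all higher, and 2 endothelial markers, both lower. Of 8 pericyte and smooth muscle markers Abcc9 and Rgs5 were called lower in HFpEF+Veh, although 5 of the 8 estimates were positive (median 0.04). Of 6 atrial markers tested Dkk3 and Bmp10 were called higher. None of these 4 genes was called without V2523 and V2530. The estimates then moved from -0.46 to -0.41 for Abcc9 and from -0.36 to -0.32 for Rgs5. They moved from 1.44 to 0.87 for Dkk3 and from 2.38 to 2.07 for Bmp10. Bmp10 was also called higher than in non_failing under TYA-018 (2.69, adjusted p 0.00359 by edgeR) and empagliflozin (3.39, adjusted p 0.00024). Neither call was lost with a single library omitted, but limma on log2(TPM + 1) did not call it under TYA-018. Its level was near the floor, with means of 0.00963 TPM in non_failing, 0.0617 under TYA-018 and 0.106 under empagliflozin. The atrial marker sum went the other way, at 160 ± 81.4 TPM in non_failing (SD, n = 8). It was 132 ± 47.8 TPM under TYA-018 and 113 ± 50.6 TPM under empagliflozin (SD, n = 11 each). Of the 6 atrial estimates against non_failing 2 were negative under each drug. The part of these cells in the values of the members was not tested.

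**Figure D3:**
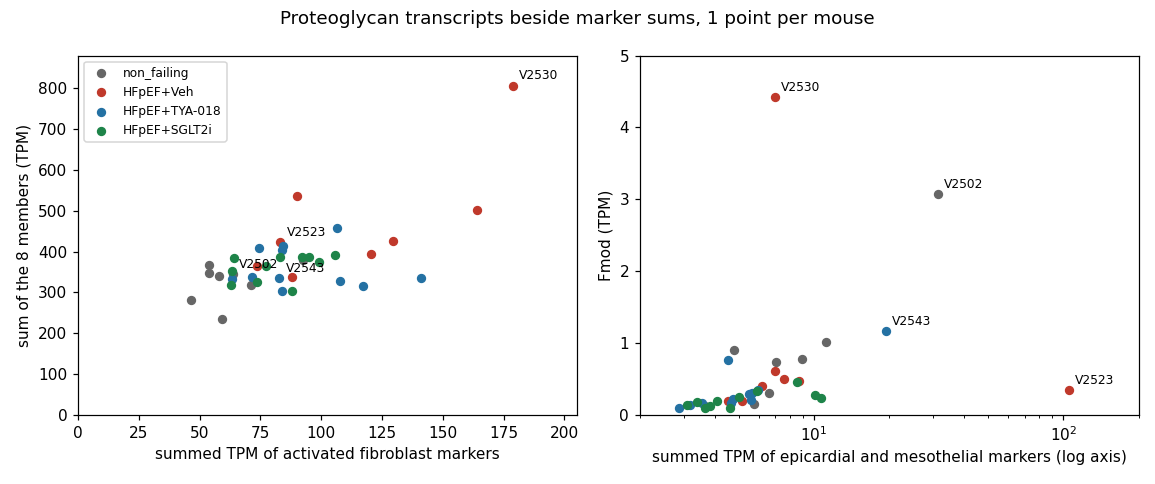
Each point is 1 mouse; left, the sum of the 8 members (TPM) against the summed TPM of activated fibroblast markers, and right, Fmod (TPM) against the summed TPM of epicardial and mesothelial markers on a log axis. V2530 is the uppermost point on both sides, at 807 TPM for the sum and 4.42 TPM for Fmod, and V2502 and V2543 are high in Fmod and in epicardial markers.

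Fmod moved with markers of the epicardium in part. In non_failing, V2502 had the highest Fmod and the highest sum of 8 epicardial and mesothelial markers, 31.3 TPM against a group median of 6.83. In HFpEF+TYA-018, V2543 had the highest Fmod, 1.17 TPM, and the highest sum, 19.4 TPM against a median of 4.74. Vehicle V2530 had the highest Fmod with a sum of 6.95 TPM, and V2523 had the highest sum, 105 TPM, with Fmod at 0.341 TPM. Of the 7 epicardial markers tested, 4 were called lower in HFpEF+SGLT2i than in non_failing, beside 6.45% of all genes called in either direction. Fmod was called lower there too, and without V2502 the calls for Upk1b and Lrrn4 were lost. The call for Krt8 was lost in 20 of 38 fits with a single library omitted. Against vehicle, where edgeR did not call Fmod, Krt8, Krt18 and Krt19 were called lower under empagliflozin and Krt8 and Krt18 under TYA-018, and none of these was called without V2523. Whether epicardium in the samples contributed to Fmod was not tested.

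For part of the pairs of SLRPs, mice with more of one tended to have more of the other within their group. Correlations were computed on log2 CPM (counts per M counts of a library) after subtracting the group mean, over 38 mice, for all 28 pairs. A pair passed at an adjusted p under 0.05 for Pearson's r in 14 pairs and for Spearman's rho in 13 of them (permutation within groups). The closest pair was Dcn and Lum, neighbours on chromosome 10, with r = 0.81 and rho = 0.86 (permutation p 1e-05 for both, the smallest that 100000 permutations can give, adjusted p 0.00014). Without the 2 mice farthest from the median of Dcn, V2530 and V2501, r was 0.83, and within the 4 groups it was 0.88, 0.79, 0.85 and 0.83. Aspn and Ogn, which share a locus on chromosome 13, gave r = 0.55 (permutation p 0.00133, adjusted p 0.00465) and rho = 0.43 (permutation p 0.00574, adjusted p 0.0161), and r = 0.34 without V2530 and V2501. Prelp and Fmod, which share a locus on chromosome 1, gave r = 0.19 (permutation p 0.255, adjusted p 0.339) and rho = 0.12 (permutation p 0.480, adjusted p 0.641).

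Some members on different chromosomes also varied together. Dcn and Aspn gave r = 0.73 (permutation p 3e-05, adjusted p 0.00028) and rho = 0.59 (permutation p 0.00028, adjusted p 0.00131), and r = 0.53 without V2530 and V2501. Dcn and Ogn gave r = 0.70 (permutation p 9e-05, adjusted p 0.000504) and rho = 0.60 (permutation p 6e-05, adjusted p 0.00056), and r = 0.55 without those mice. The median r was 0.27 over the 25 pairs on different loci and 0.28 over all pairs. Bgn and Lum gave r = 0.48 (permutation p 0.00412, adjusted p 0.0128) and rho = 0.52 (permutation p 0.00283, adjusted p 0.0088), with r of 0.76 in non_failing, 0.80 in HFpEF+Veh and 0.65 in HFpEF+TYA-018 but -0.27 in HFpEF+SGLT2i, a difference that was not tested. Prelp and Podn were the pair that passed with a negative sign, r = -0.45 (permutation p 0.0109, adjusted p 0.0234) and rho = -0.40 (permutation p 0.0171, adjusted p 0.0369), and r stayed at -0.47 without V2570 and V2526. The points share depth, scaling and the makeup of each tissue piece.

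**Figure D4:**
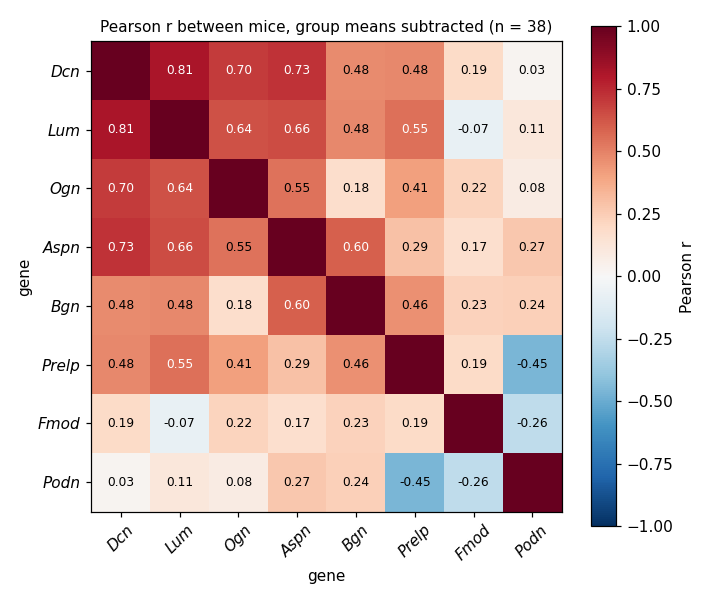
Pearson's r between members over 38 mice on log2 CPM, with group means subtracted; red is positive and blue negative. Dcn, Lum, Ogn and Aspn form a block with r from 0.55 to 0.81, and Podn with Prelp is the lowest value at -0.45.

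Among the genes whose pattern was most like the mean of the 8 members, over the same 38 mice and outside the family, were Fibin (r = 0.83), Ccdc80 (0.80), Itgbl1 (0.79), Dpt (0.79), Serpinf1 (0.78), Gpm6b (0.77), Col8a1 (0.76), Gxylt2 (0.74) and Ptgis (0.73). Without V2530 their r lay between 0.62 and 0.76. Closest to single members were Mfap4 for Bgn (r = 0.85), Fibin for Aspn (0.81), Dcn for Lum (0.81), Timp2 for Prelp (0.83), Csgalnact2 for Ogn (0.70), Xpnpep2 for Fmod (0.79) and Tef for Podn (0.82). Also near were Lum and Gpm6b for Dcn, Cygb for Bgn, Mfap5 and Mcm6 for Aspn, Gpm6b and Itih5 for Lum, S1pr2 and Itm2c for Prelp, Dcn for Ogn, Tmem119 and the epicardial marker Upk1b for Fmod, and Ankrd9 and Adamtsl4 for Podn.

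Of 10 further SLRPs, 6 passed the filter and none of these was called by edgeR in any of the 6 comparisons. Ecm2, which lies beside Aspn, was the most abundant at 5.03 ± 0.850 TPM (SD, n = 38), and Chadl, Tsku, Omd, Nyx and Podnl1 averaged 1.14, 0.720, 0.376, 0.127 and 0.0976 TPM. Kera had no count in any library, Epyc had a count in 6 libraries with at most 4 counts, and Optc and Chad had at most 14 and 6 counts. Ecm2 was under the vehicle mean of 5.91 TPM in 11 of 11 TYA-018 hearts and 11 of 11 empagliflozin hearts, while without V2530 that mean was 5.66 TPM and TYA-018 V2570, at 5.76 TPM, lay above it. Ecm2 had log2 fold changes of -0.27 (adjusted p 0.123 by edgeR) and -0.26 (adjusted p 0.248). Tsku gave -0.96 for HFpEF+SGLT2i against HFpEF+Veh (adjusted p 0.406 by edgeR), and Chadl gave -0.38 for HFpEF+Veh against non_failing (adjusted p 0.294). Among the 6 tested genes the unadjusted p was under 0.05 for 1, 1 and 2 of them in the comparisons of HFpEF+Veh with non_failing, of TYA-018 with vehicle and of empagliflozin with vehicle, beside 15.9%, 17.5% and 10.05% of all genes.

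Fibrillar collagens, the partners that SLRPs bind, were tested beside them. Of 8 tested, Col27a1 alone was called in HFpEF+Veh, beside 3.15% of all genes, higher by 0.90 in log2 (adjusted p 0.00917 by edgeR, SE 0.21). The median log2 fold change of the 8 was 0.26. Col27a1 was also higher than in non_failing under TYA-018, by 0.86 (adjusted p 0.004 by edgeR), and under empagliflozin, by 0.72 (adjusted p 0.018). None was called under either drug against vehicle, where the medians were -0.24 for TYA-018 and -0.12 for empagliflozin. Under each drug 7 of the 8 estimates were negative. The unadjusted p was under 0.05 for 4 genes under TYA-018, all lower, and for 0 under empagliflozin, beside 17.5% and 10.05% of all genes. Of 17 tested enzymes that process or crosslink collagen none was called in HFpEF+Veh (median 0.20, unadjusted p under 0.05 for 6, all higher, beside 15.9% of all genes) or under either drug against vehicle. Against non_failing, 1 of the 17 was called under TYA-018 and 2 under empagliflozin, beside 7.39% and 6.45% of all genes. Pcolce2, an enhancer of procollagen cleavage, was higher under TYA-018 by 0.47 (adjusted p 0.00584 by edgeR). The hydroxylases Plod3 and P4ha2 were higher under empagliflozin by 0.29 and 0.26 (adjusted p 0.0129 and 0.0447).

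The enzymes that build the sugar chains were tested next. Of 21 genes for chondroitin and dermatan sulfate, none was called in HFpEF+Veh against non_failing or under a drug against vehicle (unadjusted p under 0.05 for 3, 6 and 3 genes, beside 15.9%, 17.5% and 10.05% of all genes). Under TYA-018 16 of the 21 estimates against vehicle were negative, with a median of -0.15. Against non_failing 1 of the 21 was called under each drug, beside 7.39% (TYA-018) and 6.45% (empagliflozin) of all genes. B3gat3, which completes the linker of the chain to the core protein, was higher under TYA-018 by 0.20 (adjusted p 0.0189 by edgeR). The sulfotransferase Chst11 was higher under empagliflozin by 0.44 (adjusted p 0.0341). Of 11 tested genes for keratan sulfate, Chst4 was called, lower by 3.34 under empagliflozin than in non_failing (adjusted p 0.0129), at means of 0.0285 and 0.291 TPM.

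Of 12 tested proteases that cut SLRPs, 1 was called in HFpEF+Veh, beside 3.15% of all genes. Mmp2, a gelatinase, rose by 0.43 (SE 0.10, adjusted p 0.00718 by edgeR), from 11.4 ± 1.41 to 16.4 ± 3.34 TPM (SD, n = 8 and 8). None was called under either drug against vehicle, with an unadjusted p under 0.05 for 2 genes under TYA-018 and 4 under empagliflozin, beside 17.5% and 10.05% of all genes. Among 20 tested receptors and growth factors that bind SLRPs, the endocytic receptor Lrp1, which takes up decorin, rose in HFpEF+Veh by 0.38 (adjusted p 0.0129, not called with the length offset, by limma or in the fit of 2 groups), and Igf1r, a decorin receptor, fell by 0.26 (adjusted p 0.0430), a call that was lost without V2523 and V2530 (-0.21, adjusted p 0.175). Under TYA-018 the TGF-β receptor Tgfbr1 fell by 0.40 against vehicle (adjusted p 0.00727) and Tlr4, a receptor for biglycan, fell by 0.58 (adjusted p 0.0364), from 2.65 ± 0.676 TPM (SD, n = 8) to 1.64 ± 0.564 TPM (SD, n = 11). Without V2523 and V2530 neither was called, at -0.31 for Tgfbr1 and -0.59 for Tlr4 (adjusted p 0.101 and 0.106), where 1 gene in all was called. With single libraries omitted in turn, Tlr4 lost its call in 12 of 38 fits and Tgfbr1 in none, but neither was called in the fit of 2 groups, nor Tlr4 with the length offset. The median of these 20 genes was -0.24 under TYA-018, where 11 had an unadjusted p under 0.05 (17.5% of all genes did), all lower, and -0.20 under empagliflozin, where none was called and 7 had an unadjusted p under 0.05 (10.05% of all genes did). Against non_failing, 1 of the 20 was called under each drug, beside 7.39% (TYA-018) and 6.45% (empagliflozin) of all genes. Igf1r was lower under TYA-018 by 0.46 (adjusted p 3.88e-05 by edgeR) and Lrp1 was higher under empagliflozin by 0.30 (adjusted p 0.0286). Of the calls against non_failing in these lists, that for P4ha2 was lost in 24 of 38 such fits, for Igf1r in HFpEF+Veh in 11, for Chst11 in 7, for Lrp1 under empagliflozin in 5 and for B3gat3 in 3. By limma neither B3gat3, Chst11, Plod3 nor P4ha2 was called, nor Col27a1 or Lrp1 under empagliflozin.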

How the data were processed

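Left ventricular RNA of 38 mice was measured with a stranded polyA kit. The authors quantified transcripts with Salmon 1.6.0 (version from the submitters' processing notes), after the published methods on the GRCm38 mouse transcriptome, and summed them to genes. The processing notes name a human build, which was not used here. The deposited expected counts are estimated reads per gene, and reads shared between overlapping genes are divided by a model. The deposited TPM values were scaled by the authors per library, and a deposited table of effective lengths, in bases, links these units. Columns without a sample numbered 0.

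Groups and mouse numbers came from the sample titles. The members and gene lists were chosen with earlier results of these data known. Expected counts were rounded, filtered with filterByExpr and scaled with TMM, and tested two-sided in R 4.3.3 with edgeR 4.0.16 (quasi-likelihood F test), using 1 model of 4 groups and 6 comparisons. P-values were adjusted over 13765 genes by the Benjamini-Hochberg method. An SE was obtained from the estimate and its F statistic. The scripts were tested on simulated data. The labels name no batch, cage or litter. All 8 members were named in each comparison, with other SLRPs, up to 4 called genes of each pathway list by smallest p, the 10 genes most like the members' mean and the 3 most like each member, of which some are not reported here. Of the marker lists, examples were chosen after their values were seen. Alternatives were DESeq2 1.42.0, library size alone, no filter, a length offset, limma 3.58.1 on log2(TPM + 1) and log2(TPM + 0.1) for genes with a count in 90% of libraries (TPM rescaled without mitochondrially encoded genes), fits of 2 groups, and fits without each library or without V2523 and V2530. GENCODE M21 gave gene bounds, while the authors used another release of the same assembly. Protein sequences were not used here.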

Additional observations from a re-analysis of the deposited data

Results flagged for a closer look

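In the groups of 8 mice, 40 sets of values (members, their sum and marker sums) were checked for a library far from the rest, where chance flags about 1 in 20, and 10 values were marked. In HFpEF+Veh, V2530 lay apart for Dcn at 515 TPM (next 319), for Aspn at 37.0 TPM (next 21.4), for Ogn at 58.4 TPM (next 37.5), for Fmod at 4.42 TPM (next 0.607), for the sum of the 8 members at 807 TPM (next 536) and for valve and tendon markers at 23.8 TPM (next 9.22). In HFpEF+Veh, V2523 lay apart for hepatocyte markers at 1453 TPM (next 34.6) and for epicardial and mesothelial markers at 105 TPM (next 8.72). In non_failing, V2502 lay apart for Fmod at 3.08 TPM (next 1.02) and for epicardial and mesothelial markers at 31.3 TPM (next 11.1). The groups of 11 mice were not checked in this way.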

How the results depend on the processing

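In HFpEF+Veh against non_failing hearts 3 members were called under 7 of the 8 other settings and 2 without V2523 and V2530, and 2 to 3 in the fits that each left out 1 library. TYA-018 against vehicle gave 0 called members except 1 with library size alone, and empagliflozin against vehicle gave 0 except 1 with DESeq2, with library size alone and with no filter, while leaving out 1 library gave 0 throughout in both. TYA-018 against non_failing gave 2, with 0 for library size alone and 1 for limma on log2(TPM + 1) and on log2(TPM + 0.1), and 0 to 3 when 1 library was left out (0 without V2504, 3 without V2543). Empagliflozin against non_failing gave 2, with 1 under both limma settings and 3 with DESeq2, the length offset and the fit of 2 groups, and 1 to 3 when 1 library was left out (1 without V2502, 3 without V2508 or V2566). The cause was not tested.

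Directions reversed only for estimates that had not been called. Without V2523 and V2530 the log2 fold change of Ogn in HFpEF+Veh against non_failing was -0.11. Between the drugs Dcn became -0.020 and Ogn -0.018 with library size alone, -0.012 and -0.026 with limma on log2(TPM + 1), and -0.012 and -0.027 with limma on log2(TPM + 0.1). Leaving out 1 library gave, in HFpEF+Veh against non_failing, -1.27 to 0.49 for Fmod and -0.081 to 0.15 for Ogn. It gave -0.0065 to 0.17 for Podn in empagliflozin against vehicle and -0.018 to 0.099 for Dcn in empagliflozin against non_failing. Between the drugs it gave -0.018 to 0.061 for Dcn, -0.071 to 0.044 for Bgn and -0.014 to 0.069 for Ogn. Of the 384 estimates under the other settings 359 kept direction and call, as did 1791 of the 1824 with 1 library left out.

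Over all genes the number called moved more. It was 433 in HFpEF+Veh against non_failing and 289 to 620 with 1 library left out. For TYA-018 against vehicle it was 266, with 402 by DESeq2, 38 and 41 by limma on log2(TPM + 1) and log2(TPM + 0.1), 1096 with library size alone, 618 with no filter, 58 in the fit of 2 groups, 1 without V2523 and V2530, 167 without V2530, 177 without V2547 and up to 393 with another library left out (V2570). In that comparison the median log2 fold change of all genes was -0.0088, and it moved to -0.14 with library size alone and to -0.12 by limma on log2(TPM + 0.1). For empagliflozin against vehicle it was 117, with 0 by limma, 457 with no filter, 3 in the fit of 2 groups, 0 without V2523 and V2530 and 2 without V2523 alone. Between the drugs it was 0, with 187 by DESeq2, 5 with the length offset and 0 to 17 with 1 library left out. Against non_failing it was 1017 for TYA-018 and 888 for empagliflozin, with 612 and 521 by limma on log2(TPM + 1). The share of library taken by the 8 members was 0.0341% of TPM and 0.0622% of counts in non_failing, and 0.0496% and 0.0883% in HFpEF+Veh. Counts per library limited Fmod most among the members, at 9 to 368. No paired analysis was possible because the mouse numbers differ in every group.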
